A study of Mus musculus with 8 samples.

Results

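CHD4 occupancy was examined at 35 genes that encode the cardiac sarcomere, its Z-disc and the factors that assemble and turn over both. A region was taken where peaks of the 4 libraries, merged whenever they overlapped by at least 1 bp, met the body of a gene or the 10 kb on each side of it. By that rule 585 of the 121267 merged sites of the whole data set belonged to the 35 genes, which are among 21887 protein-coding genes of the annotation. The genes were split into 6 of the thin filament, 4 of the thick filament and M-band, 16 of the Z-disc and I-band, and 9 assembly and turnover factors. The number of sites per gene ran from 2 at Tnnt2 to 73 at Fhod3, with a median of 10. No site was shared by 2 of the genes, but 148 sites (25.3%) also lay within 10 kb of another protein-coding gene.

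The libraries came from whole right and left atria, dissected and flash frozen, a mixture of cells. All mice were homozygous for a floxed Tbx5 allele and were injected on postnatal day 2 with an adeno-associated virus of serotype AAV9. TBX5 KO atria (2 ChIP libraries) had received Cre recombinase driven by Nppa sequence, which is active in atrial cardiomyocytes, and control atria (2 ChIP libraries) had received EGFP driven by the same sequence. Control atria thus carried the floxed allele as well, and cells in which Nppa sequence is silent would not be recombined. The groups follow the titles and library names. The genotype and treatment fields of the same libraries give the opposite assignment, and the treatment text names CHD4 as the gene removed, so each direction below depends on the titles. The labels do not call the replicates separate animals, and the spread between libraries may be technical. Atrial markers could not be checked by expression, since peak lists hold none. CHD4 sites were called at the atrial genes Nppa (1 site), Myl7 (5), Sln (2) and Bmp10 (11), which does not measure their transcription. Fewer cardiomyocytes in the tissue and less CHD4 per cardiomyocyte cannot be told apart in these libraries.

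CHD4 is the helicase and nucleosome-remodelling subunit of the NuRD complex, which is best known for repression and also occupies active genes. TBX5 is a T-box transcription factor that maintains the expression programme of atrial cardiomyocytes. Sarcomere genes are among the most highly transcribed genes of these cells: thin filaments of actin, tropomyosin and troponin slide past thick filaments of myosin, titin spans from Z-disc to M-band, and the Z-disc anchors the thin filaments and hosts proteins that sense stretch.

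The peak lists were of unequal length, with 61173 and 69557 peaks in the TBX5 KO libraries and 99924 and 91520 in the control libraries. They covered 47.6 and 57.5 Mb in TBX5 KO atria, against 97.0 and 86.7 Mb in control atria. The lowest signal that was called was nearly equal, at 2.06 and 1.94 times the genome background in the TBX5 KO libraries and 2.08 and 2.04 times in the control libraries. Signal here is the pileup, the number of ChIP fragments stacked at the summit, recovered from the deposited fold and −log10 p of each peak and divided by the genome-wide background of its library. A site that was not called may therefore still carry signal below about this level. A control site is called lost below where both control libraries and none of the TBX5 KO libraries had it, and 24.9% of all control sites were lost in this sense.

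Promoter windows of the sarcomere genes were mostly still called. RefSeq (GRCm38.p6, the assembly behind mm10) gave 39 windows of 300 bases, from 250 before to 50 after a transcription start, for 29 of the 35 genes. Tcap, Xirp1, Myom2, Cryab, Trim55 and Fhod3 were not matched. A peak overlapped 26 windows in all 4 libraries (39.4% of all 32851 windows did so), and 22 genes had such a window. Another 5 windows, at Actc1, Tnnt2, Nrap, Smyd1 and Trim54, were overlapped in both control libraries and 1 TBX5 KO library. The share of all windows with that pattern is not given here. No peak was called in any library at 4 windows of Nebl and Pdlim5, and 1 further Nebl window had a peak in both TBX5 KO libraries and 1 control library. In 3 windows (1.60% of all windows) the peaks of both controls had no counterpart in TBX5 KO libraries, at Csrp3, Mypn and Xirp2. These encode muscle LIM protein, myopalladin and an actin-binding Xin-repeat protein, and all 3 proteins reside at or beside the Z-disc. The windows are printed because they are where calls at a start were lost, with the T-box core, MEF2, CArG, GATA, TEAD and TATA matches described below in capitals. They lie at chr7:48843622-48843921 (minus strand), chr10:63203903-63204202 (minus strand) and chr2:67445752-67446051 (plus strand) of mm10, and each reads 5′ to 3′ on its gene's strand.
Csrp3: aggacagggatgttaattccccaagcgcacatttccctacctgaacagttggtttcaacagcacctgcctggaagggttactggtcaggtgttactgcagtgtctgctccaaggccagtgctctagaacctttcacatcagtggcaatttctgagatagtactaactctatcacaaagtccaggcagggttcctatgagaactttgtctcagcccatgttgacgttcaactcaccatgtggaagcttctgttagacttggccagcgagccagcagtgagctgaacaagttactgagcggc
Mypn: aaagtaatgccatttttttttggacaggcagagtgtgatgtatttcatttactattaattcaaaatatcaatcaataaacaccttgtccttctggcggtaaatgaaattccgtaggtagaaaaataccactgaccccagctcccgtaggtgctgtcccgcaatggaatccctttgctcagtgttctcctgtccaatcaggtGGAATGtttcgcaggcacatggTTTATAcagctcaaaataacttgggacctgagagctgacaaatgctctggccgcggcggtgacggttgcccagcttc
Xirp2: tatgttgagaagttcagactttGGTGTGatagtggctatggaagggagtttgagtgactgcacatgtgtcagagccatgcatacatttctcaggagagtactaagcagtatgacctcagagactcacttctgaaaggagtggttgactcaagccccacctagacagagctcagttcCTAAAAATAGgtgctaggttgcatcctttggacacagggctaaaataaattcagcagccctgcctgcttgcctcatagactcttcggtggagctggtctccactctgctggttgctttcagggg

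The 3 lost windows differed in how strong their control peaks were. At the Csrp3 window, an internal start, the control peaks had 8.90 and 9.15 times the background, and the merged site that holds it was still called in all 4 libraries, because TBX5 KO peaks lay beside the window. The other Csrp3 window, at the upstream end of the gene, had 3.74 and 3.28 times the background in TBX5 KO atria, against 9.49 and 7.50 in control atria. At Mypn the control peaks had 4.45 and 5.45 times the background. Of the 119 sites of the 35 genes lost in both TBX5 KO libraries, this one ranked highest in control, at a mean percentile of 71.8. At Xirp2 the control peaks were weaker than at Csrp3 and Mypn, at 3.36 and 4.19 times the background.

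For comparison, 4 windows with peaks in all 4 libraries and the highest control rank are printed with the same capitals. They belong to Ankrd1 (chr19:36119795-36120094, minus strand), which encodes a stress-responsive partner of titin, Tpm1 (chr9:67049164-67049463, minus strand), which encodes tropomyosin, Synpo2l (chr14:20664525-20664824, minus strand), which encodes a Z-disc partner of alpha-actinin, and Tnnc1 (chr14:31208062-31208361, plus strand), which encodes the calcium-binding troponin subunit.
Ankrd1: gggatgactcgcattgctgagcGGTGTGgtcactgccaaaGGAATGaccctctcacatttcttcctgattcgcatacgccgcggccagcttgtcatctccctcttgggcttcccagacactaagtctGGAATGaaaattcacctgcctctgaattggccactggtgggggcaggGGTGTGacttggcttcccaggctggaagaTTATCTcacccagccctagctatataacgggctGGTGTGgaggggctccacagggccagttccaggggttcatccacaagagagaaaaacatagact
Tpm1: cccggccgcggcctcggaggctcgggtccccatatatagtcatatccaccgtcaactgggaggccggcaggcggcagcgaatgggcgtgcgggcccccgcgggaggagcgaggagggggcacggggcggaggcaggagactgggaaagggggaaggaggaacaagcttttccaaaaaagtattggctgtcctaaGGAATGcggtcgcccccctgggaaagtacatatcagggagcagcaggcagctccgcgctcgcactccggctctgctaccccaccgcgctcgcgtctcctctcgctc
Synpo2l: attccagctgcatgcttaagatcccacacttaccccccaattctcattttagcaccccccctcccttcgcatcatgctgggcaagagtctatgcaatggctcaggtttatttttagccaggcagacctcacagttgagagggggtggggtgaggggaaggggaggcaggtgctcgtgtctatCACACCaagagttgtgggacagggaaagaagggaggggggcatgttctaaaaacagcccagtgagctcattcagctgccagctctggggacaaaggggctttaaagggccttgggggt
Tnnc1: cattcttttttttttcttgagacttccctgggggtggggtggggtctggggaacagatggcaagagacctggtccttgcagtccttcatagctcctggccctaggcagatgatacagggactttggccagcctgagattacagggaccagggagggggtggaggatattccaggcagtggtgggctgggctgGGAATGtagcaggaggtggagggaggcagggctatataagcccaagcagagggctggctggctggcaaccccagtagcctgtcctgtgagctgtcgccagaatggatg

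The Ankrd1 peak had 4.96 and 5.07 times the background in TBX5 KO libraries, against 13.3 and 14.2 in control libraries. The peaks over the Tpm1 window had 6.55 and 7.31 times the background in TBX5 KO libraries, against 16.8 and 14.9 in control libraries. The Synpo2l window had 2.71 and 2.91 in TBX5 KO libraries, near the lowest callable level, against 13.7 and 13.1 in control libraries. The groups did not overlap at any of these 3 windows. The Tnnc1 window differed between the TBX5 KO libraries, with 9.36 and 2.76, against 14.5 and 13.8 in control libraries. These values are those of the summit of the peak that overlaps the window, which may lie outside it. Peaks over the Synpo2l window were 240 and 895 bp wide in TBX5 KO libraries, against 7026 and 7117 bp in control libraries. The strongest TBX5 KO peaks of that merged site had 7.58 and 7.01 times the background, against 13.7 and 13.1 in control libraries. For the merged site over the Tnnc1 window the values were 9.36 and 7.53, against 14.5 and 13.8.

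Letter motifs were searched on both strands of all windows. The T-box motif GGTGTGA was found in 6 of the 39 sarcomere windows (15.4%, against 3.98% of all windows), at Ankrd1, Lmod2, Mybpc3, Synpo2l, Tnni3 and Xirp2. Its shorter core GGTGTG, which every T-box match contains, was in 8 windows (20.5%, against 19.0% of all). The MEF2 motif CTANNNNTAG was in 9 windows (23.1%, against 3.69%) and the CArG box of serum response factor in 7 (17.9%, against 1.63%). The TEAD motif CATTCC was in 13 windows (33.3%, against 14.7%), the motif AGATAA of GATA factors in 6 (15.4%, against 11.2%) and TATAAA in 6 (15.4%, against 13.6%). NKX2-5 (AAGTG) was in 14 windows (35.9%, against 46.4%) and the E-box CANNTG in 32 (82.1%, against 72.3%). Of the 6 genes with a T-box match, 5 had the window called in all 4 libraries, and Xirp2 was the exception. This is near the share of all 29 genes with a window, of which 22 had one called in all 4. The share over all T-box windows of the annotation is not given here. Some windows of a gene overlap each other, so they are not separate observations, and a match is a run of letters and no evidence of binding.

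Control atria were covered by CHD4 peaks over long stretches of the sarcomere genes, and this coverage was under 50% as long in TBX5 KO atria. Peaks covered 300.3 and 382.0 kb of the 35 genes with their flanks in TBX5 KO libraries, a mean of 341.1 ± 57.8 kb (SD, n = 2), against 816.5 and 814.5 kb in control libraries, a mean of 815.5 ± 1.41 kb (SD, n = 2). The ratio was 0.418, against 0.589 for the sums over all protein-coding genes, and the groups did not overlap. As a share of the gene windows, coverage was 9.98% and 12.7% in TBX5 KO libraries and 27.1% in each control library. The same share over all protein-coding genes was 3.71% and 4.43% in TBX5 KO libraries and 7.32% and 6.50% in control libraries. The number of peaks changed less, with 375 and 426 in TBX5 KO libraries, against 547 and 502 in control libraries (ratio of means 0.764). When only as many of the strongest peaks of a list were kept as the shortest list holds, the direction for peak numbers turned, with 375 and 374 peaks in TBX5 KO libraries, against 309 and 341 in control libraries (ratio 1.15). Covered length kept its direction in those lists, at a ratio of 0.462, against 0.668 for the length covered by the whole lists. For both totals p was 0.333 in a two-sided exact permutation test over the libraries, the lowest value possible with 2 in each group.

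Covered length was lower in both TBX5 KO libraries than in both control libraries at 34 of the 35 genes (74.4% of the 15453 protein-coding genes covered in both control libraries). It was higher in both TBX5 KO libraries at none of them (1.42% of the 15453 genes). It was under 50% of the control mean at 23 of the 35 genes (25.3% of the 15453 genes). The median gene kept 0.423 of its control length, against 0.648 over all genes. The range ran from 0 at Xirp2 to 0.961 at Ankrd1, the gene whose groups overlapped, with 5.72 and 8.73 kb in TBX5 KO libraries and 7.17 and 7.87 kb in control libraries. Fewer peaks in both TBX5 KO libraries were found at 18 genes (38.1% of all). At 7 genes, Tnnt2, Tnni3, Ttn, Tcap, Xirp1, Ankrd1 and Hspb7, both TBX5 KO libraries had more peaks than both control libraries (2.42% of all), although all but Ankrd1 were covered over less sequence in both. In control, 16 of the 35 genes were among the 1094 protein-coding genes (5%) with the largest covered share of their windows, led by Tnnt2 at rank 19, Tcap at rank 41 and Ttn at rank 49. The 4 gene classes and their spread are shown in the plot of covered share by gene.

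**Figure D1:**
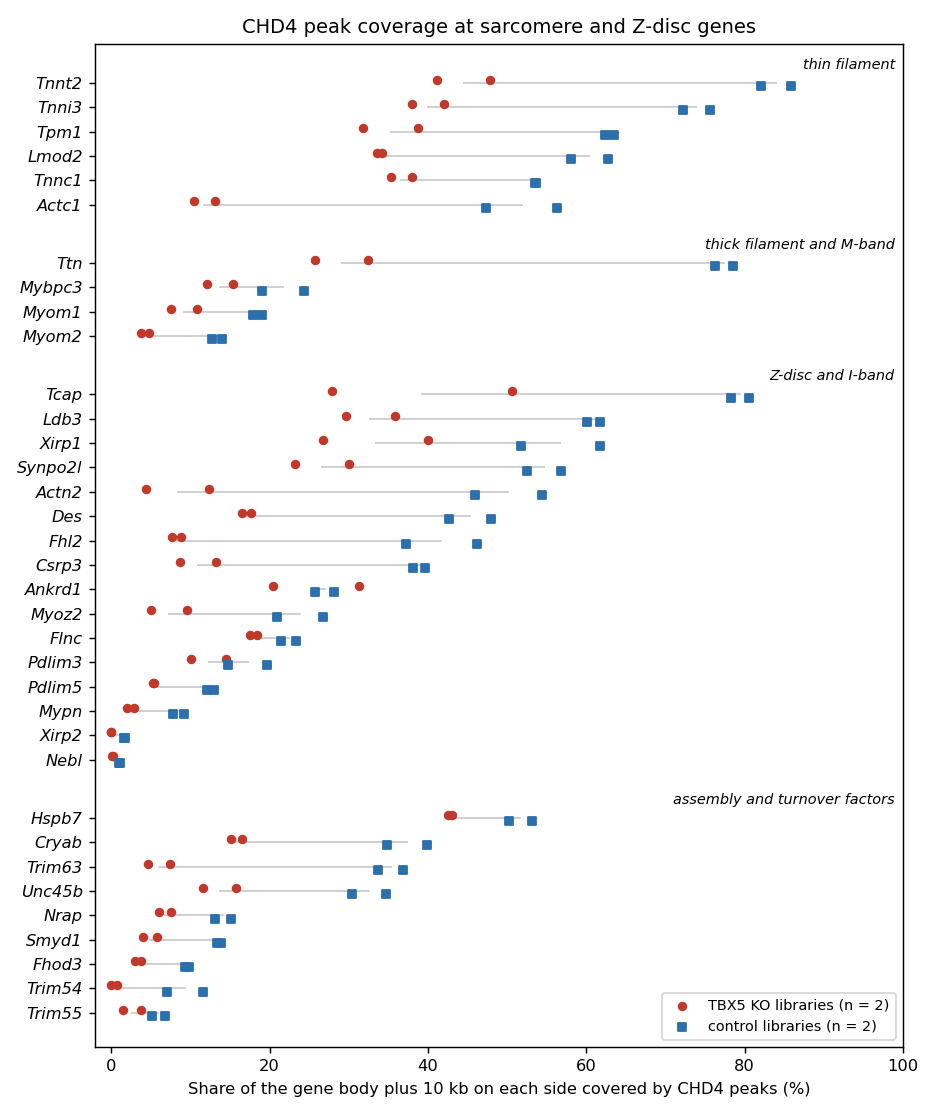
Share of each gene body plus 10 kb on each side that was covered by CHD4 peaks, in percent, for 35 genes in 4 classes; red circles are the 2 TBX5 KO libraries, blue squares the 2 control libraries, and the grey line joins the group means. The TBX5 KO circles lie left of the control squares at 34 genes, and Ankrd1 is the exception.

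CHD4 sites of these genes that both controls shared were often without a call in TBX5 KO atria, and seldom the reverse. Of 340 such control sites, 119 (35%, against 24.9% of all 68137) were called in neither TBX5 KO library, with a Wilson 95% interval of 30.1% to 40.2% that covers counting error alone. Another 67 (19.7%, against 19.2% of all sites) were called in 1 TBX5 KO library, and 154 (45.3%, interval 40.1% to 50.6%, against 55.8% of all sites) in both. Only 3 of the 161 sites called in both TBX5 KO libraries were called in neither control library (1.86%, against 1.91% of all sites), at Ankrd1, Unc45b and Mybpc3, and their signal was near the lowest callable level, at 2.24 to 2.61 times the background. Without Ttn, Actn2, Fhl2 and Fhod3, the 4 genes chosen after their high site numbers were seen, 66 of 211 sites (31.3%) were called in neither TBX5 KO library. In lists of equal length the share was 23.0% over the 35 genes, against 14.8% of all sites, and the class shares were 8.33% for the thin filament, 18.8% for the thick filament and M-band, 25% for the Z-disc and I-band and 28.6% for assembly and turnover factors. At least 1 control site was lost in both TBX5 KO libraries at 26 of the 35 genes, which held a median of 10 sites each. The same share over all protein-coding genes is not given here, so this count has no background to be read against.

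**Figure D2:**
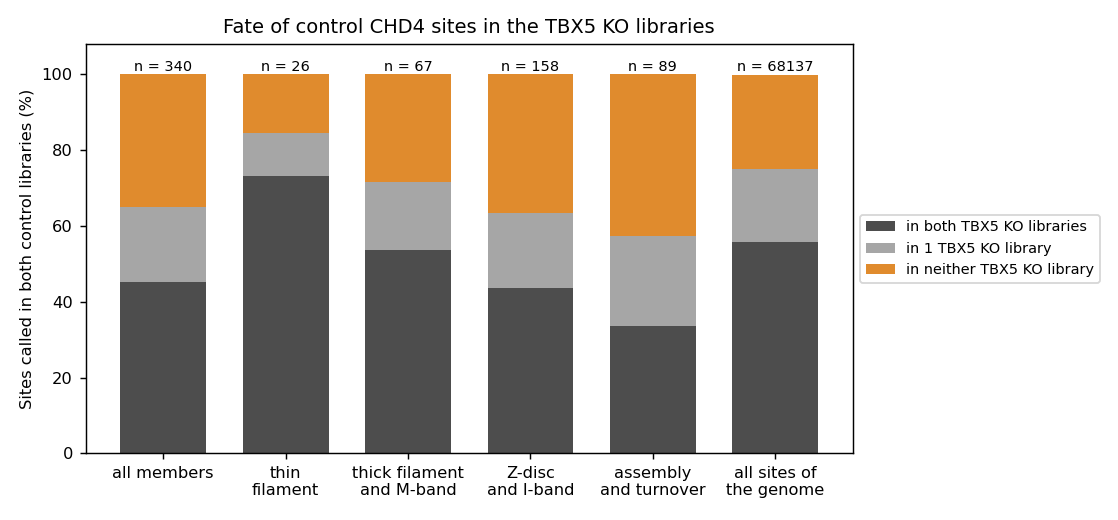
Sites called in both control libraries, in percent, split by whether they were called in neither (orange), 1 (light grey) or both (dark grey) TBX5 KO libraries, for the 35 genes, each class and all sites; n is the number of sites. The share called in neither is 15.4% in the thin filament class and 42.7% among the assembly and turnover factors, against 24.9% of all sites.

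The thin filament genes kept most of their site calls while the peaks over them shrank. Of 26 control sites of this class, 4 (15.4%, interval 6.15% to 33.5%, against 24.9% of all sites) were called in neither TBX5 KO library. In both TBX5 KO libraries 19 (73.1%, against 55.8% of all sites) were called. The interval holds the share of all sites, and at the rates of all sites of similar control rank 3.94 lost sites would be counted. The share lost rested on few sites: it was 31.2% without the second control library, against 39.9% of all sites then, and 8.33% in the gene bodies without flanks. Peaks covered 32.2% and 36.6% of the class in TBX5 KO libraries, against 65.4% in each control library, a ratio of 0.526. Tnnt2 (chr1:135836315-135852268), which encodes the troponin subunit that binds tropomyosin, was chosen after its values were seen because its region was nearly filled with peaks in control. It was covered over 14.8 and 17.2 kb in TBX5 KO libraries, against 30.9 and 29.5 kb in control libraries. The widest peak measured 3852 and 3102 bp in TBX5 KO libraries, against 27061 and 13736 bp in control libraries, and the region held 14 and 13 peaks in TBX5 KO libraries, against 3 and 5 in control libraries. It counts as 2 sites, both called in all 4 libraries, so the loss of coverage at Tnnt2 does not show in the site counts.

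Within this class the actin gene stood at the low end. Actc1, the cardiac actin gene, was covered over 2.67 and 3.35 kb in TBX5 KO libraries, against 12.1 and 14.4 kb in control libraries, a ratio of 0.227. The site at its start was called in all 4 libraries, with 3.74 and 3.43 times the background in TBX5 KO libraries, against 8.90 and 9.34 in control libraries, although the promoter window itself was overlapped in 1 TBX5 KO library only. Of its 3 control sites, 1 was lost. Tnnc1 kept the largest part, with 8.26 and 8.89 kb in TBX5 KO libraries, against 12.6 and 12.5 kb in control libraries. Tpm1 had 15.0 and 18.3 kb in TBX5 KO libraries, against 29.9 and 29.4 kb in control libraries, and lost none of its 6 control sites in both TBX5 KO libraries. The broad site over its start (chr9:67034769-67050291) ranked highest of the class in control by −log10 p, with 9.54 and 8.65 times the background in TBX5 KO libraries, against 16.8 and 14.9 in control libraries. Both remaining genes of the class lay between Actc1 and Tnnc1. Tnni3, which encodes the inhibitory troponin subunit, had 9.27 and 10.3 kb in TBX5 KO libraries, against 17.6 and 18.5 kb in control libraries. Lmod2, which encodes leiomodin at the pointed ends of thin filaments, had 9.28 and 9.45 kb in TBX5 KO libraries, against 17.3 and 16.1 kb in control libraries. At each of these 5 genes the control libraries lay above the TBX5 KO libraries.

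**Figure D3:**
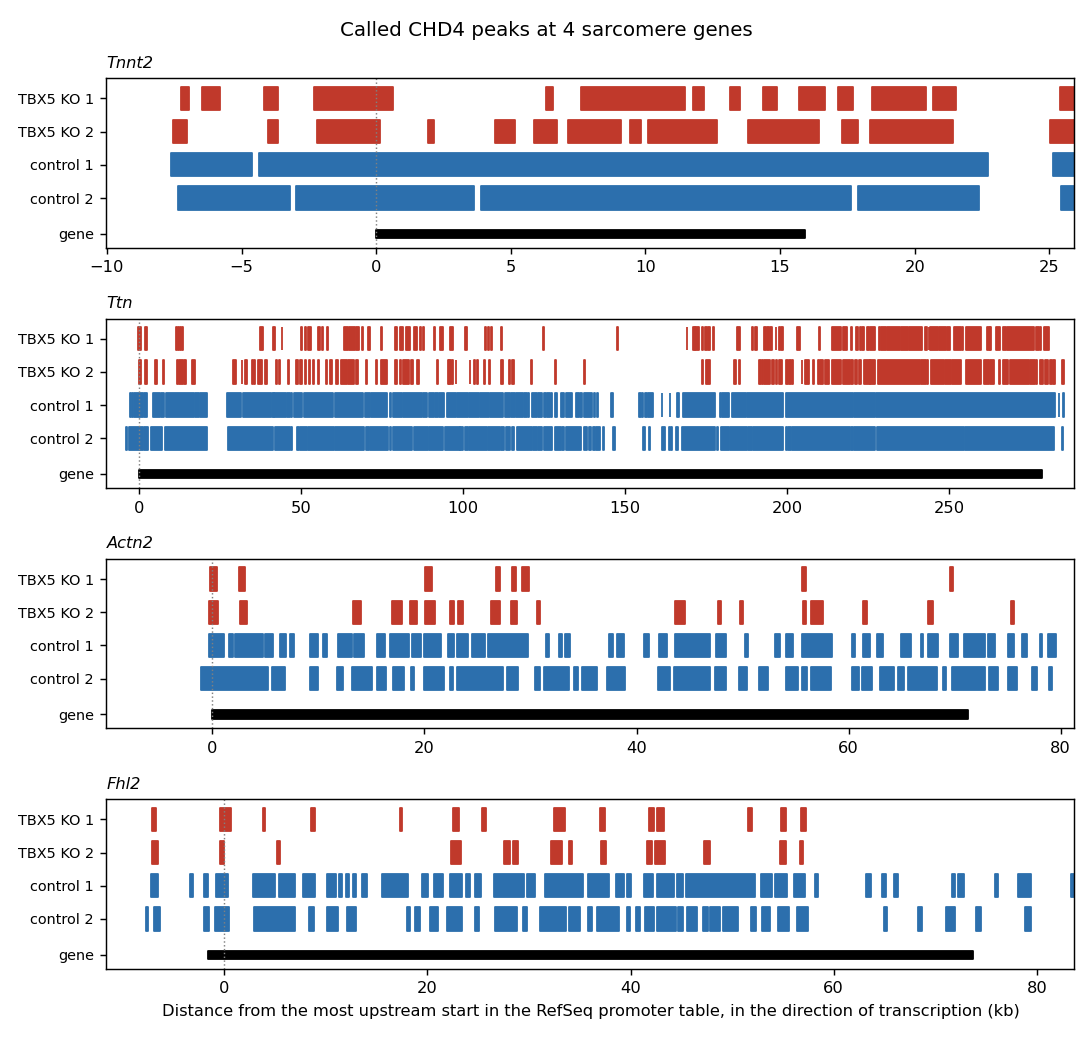
Called CHD4 peaks along Tnnt2, Ttn, Actn2 and Fhl2 in the TBX5 KO libraries (red, upper rows) and control libraries (blue, lower rows), with the gene body in black; the horizontal axis is the distance in kb from the most upstream start in the RefSeq promoter table, in the direction of transcription. Broad control peaks over Tnnt2 and the 3′ end of Ttn stand as many short peaks in TBX5 KO libraries, while at Actn2 and Fhl2 few TBX5 KO peaks are left.

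Ttn, the titin gene, had the largest covered length of the 35 genes in all 4 libraries. It lies at chr2:76703980-76982557 and was covered over 77.2 and 97.1 kb in TBX5 KO libraries, against 228.0 and 234.0 kb in control libraries, a ratio of 0.377. The number of peaks went the other way, with 85 and 99 in TBX5 KO libraries, against 68 and 59 in control libraries. A site of 55229 bp at the 3′ end of the gene (chr2:76699864-76755092, also within 10 kb of Plekha3) was a single peak of 55135 bp in the first control library, the widest peak of that list. It consisted of 21 and 18 peaks in TBX5 KO libraries, against 1 and 2 in control libraries, with 4.77 and 5.07 times the background in TBX5 KO libraries, against 10.9 and 7.01 in control libraries. Of the 39 control sites of Ttn, 13 were called in neither TBX5 KO library. In the plot of peaks along 4 genes the broad control peaks near the 3′ end of Ttn stand as many short TBX5 KO peaks, while in the middle of the gene control peaks were already short and few TBX5 KO peaks were called.

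The other genes of the thick filament and M-band were covered over a smaller share. The class lost 19 of 67 control sites in both TBX5 KO libraries (28.4%, interval 19.0% to 40.1%), and 6 of 28 (21.4%) without Ttn. Both shares were near the 24.9% of all sites, which the interval holds. Myom1, which encodes myomesin, a cross-linker of thick filaments, lost 3 of 17 control sites and had 10.9 and 15.5 kb covered in TBX5 KO libraries, against 25.6 and 27.4 kb in control libraries. A site at its upstream end (chr17:70999949-71004635, also within 10 kb of 2 other genes) ranked highest of the class by −log10 p, with 8.98 and 9.69 times the background in TBX5 KO libraries, against 18.6 and 17.8 in control libraries. Myom2, its paralog, lost 2 of 6 control sites, with 3.60 and 4.61 kb covered in TBX5 KO libraries, against 12.2 and 13.4 kb in control libraries. Mybpc3, which encodes cardiac myosin-binding protein C, had the smallest reduction of the class, with 4.64 and 5.90 kb in TBX5 KO libraries, against 9.32 and 7.30 kb in control libraries. All 4 genes had non-overlapping groups.

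Among the Z-disc and I-band genes, Actn2 and Fhl2 lost the most sites by number, and they also had the most control sites. The class lost 58 of 158 control sites in both TBX5 KO libraries (36.7%, interval 29.6% to 44.5%, against 24.9% of all sites). It kept 69 in both (43.7%, against 55.8% of all sites). Actn2 (chr13:12269426-12340732), which encodes the alpha-actinin that cross-links thin filaments, was covered over 4.01 and 11.3 kb in TBX5 KO libraries, against 41.9 and 49.6 kb in control libraries. It had 8 and 19 peaks in TBX5 KO libraries, against 44 and 36 in control libraries. Of its 26 control sites, 11 were called in neither TBX5 KO library, 11 in 1 of them, and 4 in all 4 libraries. One of these 4 (chr13:12282311-12285164) had the lowest ratio of signal of all retained sites of the 35 genes, with 2.43 and 2.54 times the background in TBX5 KO libraries, against 8.31 and 8.18 in control libraries (ratio 0.301). Fhl2 (chr1:43123071-43198343), which encodes a LIM protein that binds titin, had 7.32 and 8.43 kb in TBX5 KO libraries, against 44.0 and 35.4 kb in control libraries. It lost 11 of 25 control sites in both TBX5 KO libraries.

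The genes of other Z-disc proteins spanned the whole range. Ldb3, which encodes a PDZ-LIM partner of alpha-actinin, kept 0.536 of its control length, with 24.8 and 29.9 kb in TBX5 KO libraries, against 50.2 and 51.7 kb in control libraries, and lost 6 of 17 control sites. Xirp2 had no called base in either TBX5 KO library, against 1.72 and 1.67 kb in control libraries, and lost all 4 of its control sites. Nebl, which encodes nebulette, lost 4 of 6 control sites and had 0.603 and 1.07 kb in TBX5 KO libraries, against 4.56 and 3.98 kb in control libraries. Mypn lost 6 of 9, with 2.11 and 3.11 kb in TBX5 KO libraries, against 9.94 and 8.48 kb in control libraries. Xirp2 and Nebl were sparsely covered in control too, at 1.04% of the window for Nebl. By contrast Xirp1, the paralog of Xirp2, lost none of its 3 control sites and held the site of highest rank by −log10 p in the class (chr9:120008492-120022775), with 10 and 11 times the background in TBX5 KO libraries, against 18.8 and 16.2 in control libraries. Ankrd1 lost none of its 5 control sites, and its signal at the start was lower as given above, while its covered length did not separate the groups.

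Of the remaining Z-disc and I-band genes, Csrp3 stood near the low end and Flnc near the high end, and both were chosen after their values were seen. Csrp3 lost 6 of 12 control sites and had 3.28 and 4.99 kb covered in TBX5 KO libraries, against 14.4 and 14.9 kb in control libraries. Myoz2, which encodes a calsarcin that tethers calcineurin to alpha-actinin, lost 4 of 10, and Pdlim5, a PDZ-LIM protein gene, 4 of 16. Tcap, whose product caps the end of titin in the Z-disc, and Synpo2l each lost 1 of 5. No control site was lost at Des, the gene of the intermediate filament desmin, at Flnc, the gene of the actin cross-linker filamin C, or at Pdlim3. Flnc was covered over 8.53 and 8.95 kb in TBX5 KO libraries, against 11.3 and 10.5 kb in control libraries. Covered length was nevertheless lower in both TBX5 KO libraries at all 8 of these genes, with ratios from 0.282 at Csrp3 to 0.801 at Flnc.

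The assembly and turnover factors had the largest share of lost sites among the 4 classes. In both TBX5 KO libraries 38 of 89 control sites were not called (42.7%, interval 32.9% to 53.1%, against 24.9% of all sites). Without Fhod3, the gene with most sites, it was 20 of 50 (40.0%). Fhod3, which encodes a formin that assembles actin, lost 18 of 39, with 13.6 and 16.7 kb covered in TBX5 KO libraries, against 41.7 and 43.6 kb in control libraries. The muscle RING-finger ubiquitin ligases of the sarcomere differed from each other. Trim54 lost 3 of 4 control sites and had 0 and 0.280 kb in TBX5 KO libraries, against 4.75 and 2.90 kb in control libraries. Trim63 lost 5 of 8, with 1.60 and 2.56 kb in TBX5 KO libraries, against 12.7 and 11.6 kb in control libraries. Trim55, the third of them and chosen after its values were seen, lost none of 5 in both TBX5 KO libraries, but 4 of these were called in 1 TBX5 KO library only.

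The chaperones and other assembly factors also had less covered sequence in TBX5 KO atria. Unc45b, a myosin chaperone, lost 3 of 11 control sites, with 6.04 and 8.22 kb in TBX5 KO libraries, against 18.1 and 15.8 kb in control libraries. Smyd1, a muscle lysine methyltransferase needed for myofibril assembly, lost 5 of 9, with 2.72 and 3.93 kb in TBX5 KO libraries, against 9.53 and 9.16 kb in control libraries. Its upstream flank (chr6:71268504-71273030, also near another gene) held the control site of the 35 genes with the highest rank by −log10 p, at a mean percentile of 98.4, although sites at Myom1 and Xirp1 had a higher pileup. It had 7.95 and 9.25 times the background in TBX5 KO libraries, against 16.0 and 15.5 in control libraries. At both Unc45b and Smyd1 the groups were apart in covered length. Nrap, a scaffold of myofibril assembly, lost 3 of 9, with 5.43 and 6.76 kb in TBX5 KO libraries, against 13.6 and 11.8 kb in control libraries. Hspb7, a small heat shock protein gene chosen after its values were seen, kept the largest part of the class, with 10.4 and 10.6 kb in TBX5 KO libraries, against 13.1 and 12.3 kb in control libraries. Cryab, the gene of another small heat shock protein, alpha-B-crystallin, likewise chosen after its values were seen, lost 1 of 3, with 4.63 and 5.06 kb in TBX5 KO libraries, against 12.2 and 10.7 kb in control libraries.

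Where a site survived, its signal was lower in TBX5 KO atria. At the 154 sites called in all 4 libraries the median signal was 3.46 and 3.43 times the background in TBX5 KO libraries, against 6.87 and 6.62 in control libraries. The median ratio was 0.561 (quartiles 0.46 and 0.644), against 0.645 over all 38042 such sites with recovered values. Both TBX5 KO libraries lay below both control libraries at 150 of the 154 sites (97.4%, against 88.2% of all sites), and no site had a ratio above 1 (2.83% of all sites did). The class medians were 0.574 for the thin filament, 0.592 for the thick filament and M-band, 0.552 for the Z-disc and I-band, and 0.528 for the assembly and turnover factors. These medians lie closer together than the quartiles of any class do. The difference between classes was not tested.

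**Figure D4:**
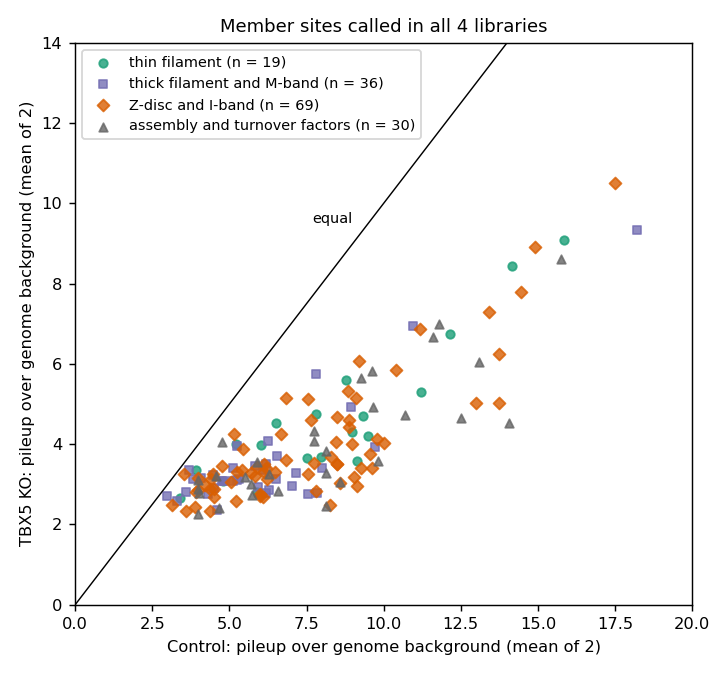
Signal at the 154 sites of the 35 genes called in all 4 libraries: mean pileup over genome background of the 2 TBX5 KO libraries (vertical axis) against that of the 2 control libraries (horizontal axis), with 1 point per site and marker by class. All points lie below the line of equal signal, and the 4 classes overlap.

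The retained sites were also shorter and more often broken up. A site of the 35 genes was split into more peaks in both TBX5 KO libraries than in both control libraries at 32 of 154 sites (20.8%, against 4.46% of all). Fewer bases were covered in both TBX5 KO libraries at 126 of them (81.8%, against 57.3% of all). Peaks of at least 5 kb at these genes numbered 2 and 5 in TBX5 KO libraries, against 27 and 31 in control libraries. In the whole lists there were 154 and 282 in TBX5 KO libraries, against 1209 and 910 in control libraries. Because a broad control peak and its remnants count as 1 site, site counts and covered length measure different things. Sites called in neither TBX5 KO library were short, with a median of 695 bp, against 2570 bp for those called in all 4. The width of a site spans its merged peaks from every library, so sites called in more libraries can be wider by that rule alone.

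Loss of a call went with a weak signal in control. Sites were ranked by the mean percentile of their −log10 p in the control lists and split into 10 deciles over all sites. In the weakest decile 76.2% of 42 sites at the 35 genes were called in neither TBX5 KO library, against 64.1% of all sites. In the sixth decile it was 32.0% of 25 sites, against 16.8% of all. In the 3 strongest deciles none of 34, 45 and 22 sites was lost, against 5.69%, 2.04% and 0.426% of all sites. At the rates of all sites in the same deciles 89.4 lost sites would be counted, and 119 were. The counts by class were 4 against 3.94 at those rates for the thin filament, 19 against 17 for the thick filament and M-band, 58 against 44.5 for the Z-disc and I-band, and 38 against 23.9 for the assembly and turnover factors. The median control percentile was 78.3 for thin filament sites and 55.9 to 61.8 for the other classes, so the classes differed in control strength, and its part in the difference between them was not tested beyond these rates.

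**Figure D5:**
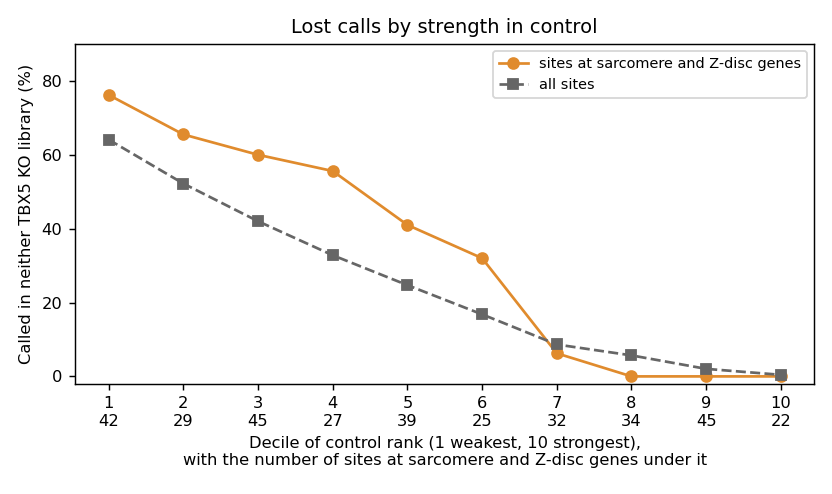
Share of sites called in both control libraries that were called in neither TBX5 KO library, in percent, by decile of control rank, for sites at the 35 genes (orange circles, number of sites under each decile) and all sites (grey squares). The orange line lies above the grey one in the 6 weakest deciles and below it in the 4 strongest.

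Among the retained sites the median ratio of signal was mostly lower in deciles of stronger control rank, and it was lowest in the ninth decile. In the ninth decile the median ratio of 44 sites at the 35 genes was 0.445, against 0.580 over all sites of that decile. In the tenth it was 0.526 for 22 sites, against 0.540 over all. In the seventh it was 0.606 for 25 sites, against 0.652 over all. Sites were ranked by their control values, which also enter the ratio, so the order over deciles is given beside that of all sites and not on its own. A retained site also has to reach the lowest callable signal in both TBX5 KO libraries, so a weak control site is retained only at a high ratio. Over all sites the median ratio likewise went from 0.961 in the first decile to 0.540 in the tenth. The order over deciles is therefore not a result about these genes.

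Position in the gene also went with the loss of calls. Sites at a start of the 35 genes, within 1 kb, were called in neither TBX5 KO library in 5 of 34 cases (14.7%), and sites at a gene end with no listed start in 4 of 27 (14.8%). Inside the gene bodies it was 92 of 222 (41.4%), and in the flanks 18 of 57 (31.6%). Control strength followed the same order at the ends, with a median percentile of 88.8 at starts and 54.8 inside the genes. Of sites within 1 kb of any RefSeq start, 7 of 49 at these genes were lost (14.3%, against 5.34% of all), and elsewhere 112 of 291 (38.5%, against 29.1% of all). The gene table used gives no exons, so sites inside a gene were not divided into exonic and intronic ones.

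Further genes of the contractile apparatus and costamere, in a list of 50 of which 49 were in the gene table, are given beside the 35 genes. Of 367 control sites 111 were called in neither TBX5 KO library (30.2%, interval 25.8% to 35.1%, against 24.9% of all sites). In all 4 libraries 201 were called (54.8%, near the 55.8% of all sites). Covered length was lower in both TBX5 KO libraries at 39 of the 47 genes covered in both control libraries. This is a larger share than the 74.4% of all 15453 such genes. The ratio of the sums was 0.477, against 0.589 over all protein-coding genes. Tmod1, which encodes the tropomodulin that caps thin filaments, lost 8 of 16 control sites, with 6.29 and 11.3 kb in TBX5 KO libraries, against 37.0 and 33.4 kb in control libraries. Speg, a gene of a striated muscle kinase, lost 10 of 18. Tnni1, the slow skeletal and fetal troponin I gene, lost none of 9, with 6.85 and 8.12 kb in TBX5 KO libraries, against 8.50 and 9.19 kb in control libraries. These 3 genes were chosen after their values were seen, to show both ends of the range.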

How the data were processed

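Peak lists of 4 CHD4 ChIP libraries from mouse atria were used, 2 per group and 1 list per library, without pooling of replicates. The 4 inputs have no list of their own here. Per the submitters' processing notes, MACS2 and DiffBind (no version stated) and build mm10 were used. Aligner, filters and read depth: not given in the sources used here. The fold of a peak, as the authors deposited it, is the ratio of pileup to local background. Its −log10 p and −log10 q, also deposited, are those of the peak caller, the lowest −log10 q of a list being 1.30 to 1.31. The deposited score follows −log10 q. Values of a peak served to rank or filter within its list.

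Peaks were merged into sites at an overlap of at least 1 bp and assigned to genes of a RefSeq table of GRCm38.p6, body plus 10 kb. Pileup, as a whole number, and background were recovered from fold and −log10 p under the Poisson model, within 0.01 in −log10 p, in 99.998% to 100% of the peaks. They are estimates. A site's signal is that of its strongest peak in a library. Intervals are Wilson 95% intervals. The steps were tested on simulated data. The genes and lists were chosen with earlier results of these data known, and shares were not tested over sites, which are not replicates. Genes given with values in every library were, in each class, the 3 with most sites in both control libraries, the 2 with the highest share lost, those with a TBX5 KO-only site and that with the site of highest control rank by −log10 p. Tied genes were all kept, and genes outside the rule are said to be chosen after their values were seen. Alternatives were −log10 q of at least 5, equal numbers of peaks per list, sharing defined by 50% of the shorter peak, gene bodies without flanks, leaving out each library, same-numbered pairs, the deposited fold and exchanged groups; those for covered length and without Ttn, Actn2, Fhl2 and Fhod3 were added after the data were seen. Genome sequence was not used beyond the promoter windows. Python 3.11.15, pandas 2.3.3, numpy 2.4.6, scipy 1.17.1 and matplotlib 3.10.9 were used.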

Additional observations from a re-analysis of the deposited data

How the results depend on the processing

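With peaks of −log10 q of at least 5, the share of control sites called in neither TBX5 KO library was 40.4% over the 35 genes (29.1% of all sites). It was 54.8% for assembly and turnover factors. The ratio of covered length was 0.339 for the 35 genes, against 0.527 for the whole lists. In lists of equal length the share was 23.0% over the 35 genes (14.8% of all sites). It was 18.8% for the thick filament and M-band, 25% for the Z-disc and I-band and 28.6% for assembly and turnover factors. In all 4 libraries 61.3% of control sites were called (69.6% of all sites). The ratio of peak numbers was then 1.15, so it reversed; the cause was not tested. With the groups exchanged, as the genotype and treatment fields give them, the share was 1.86% over the 35 genes, near the 1.91% of all sites. It was 0.0% for the thin filament, 2.70% for the thick filament and M-band, 1.37% for the Z-disc and I-band and 3.12% for assembly and turnover factors. Then 95.7% were called in all 4 (93.5% of all sites). The deposited fold gave a median ratio of 0.629 at retained sites.

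Leaving out 1 library at a time, the shares ran from 40.0% to 49.7% (35 genes), 18.5% to 31.2% (thin filament), 32.8% to 41.8% (thick filament and M-band), 41.1% to 51.9% (Z-disc and I-band) and 48.3% to 60.7% (assembly and turnover factors), since fewer libraries must lack or hold a call. All sites gave 31.3% to 39.9%. The share called in all libraries left ran from 34.4% to 60.0% (41.7% to 68.7% of all sites). Ratios ran from 0.368 to 0.468 for covered length, 0.715 to 0.812 for peak numbers and 0.541 to 0.568 for signal. An overlap of 50% and gene bodies without flanks moved no value beyond its interval.

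The labels do not say that equal replicate numbers mark shared animals or batches. With the replicate number as a block, the ratio of peak numbers was 0.767 (exact sign-flip permutation p = 0.5, the smallest that 2 pairs allow), that of covered length 0.418 and that of signal 0.552. Deviations of same-numbered libraries correlated at r = 0.335 over the 35 genes, which share their libraries. Depth is unknown, so loss of a call near the lowest callable signal cannot be told apart from weaker enrichment of a library.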
